A study of Bos taurus with 10 samples.

Results

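Adipose tissue beneath the skin was compared with adipose tissue of the abdomen in lactating cattle. The comparison used 6 of the 10 arrays of the series, chosen by the tissue named in their titles: 2 arrays of subcutaneous, 2 of mesenteric and 2 of omental adipose tissue, all taken at peak lactation. The mesenteric depot lies along the gut and the omental depot in the fold that hangs from the stomach, and the mean of these 2 visceral depots was the yardstick for the subcutaneous sample. Every depot was 1 RNA sample, put on an array in each dye orientation, Cy3 and Cy5, beside a common reference mixed from tissues. Breed, age, feeding and the number of animals behind a sample are not given in the labels used here, and all groups shared the lactation stage. Of the 5 tissues of the series, the liver and mammary gland samples, also from peak lactation, serve below for context only.

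Adipose tissue stores triglyceride in adipocytes and releases it as fatty acids by lipolysis, and in a cow at peak lactation it feeds fat to the mammary gland. Between the adipocytes lie capillaries wrapped in basement membrane, fibroblasts, and immune cells, of which macrophages are usually the most numerous. Macrophages take up lipid and dead cells and degrade them in lysosomes, acidic compartments filled with hydrolases such as cathepsins and acidified by a proton pump, the vacuolar ATPase. Monocytes and granulocytes that enter a tissue from blood carry other genes, among them S100A12 and the phagocyte oxidase.

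The value of a gene on an array, called its level below, is the log2 ratio of the tissue to the reference after subtraction of the array's median. A difference is the subcutaneous level minus the mean of the mesenteric and omental levels, taken within each dye orientation and averaged. The ± is the distance of either orientation's difference from their mean. It covers error between arrays and not the spread between animals. A dye effect shared by all depots cancels and is not part of it. With 1 RNA sample per depot there is no test of a difference. A gene was counted as higher or lower when its mean difference reached 2-fold, which is 1 on the log2 scale, with the same sign in both orientations. The direction of the ratio is likely rather than stated, and with the other direction every sign below turns. In the direction used, RBP4, known from hepatocytes and adipocytes, averaged 4.54 in liver and -3.09 in mammary gland. KRT19, a keratin of epithelia, averaged 4.50 in mammary gland and 1.29 in liver. Where pairs of levels are given, the first is from the array with the tissue in Cy3 and the second from the array with the tissue in Cy5. Between 16164 and 16245 of 16416 spots per adipose array had a value, 4332 named genes could be compared, and all names rest on a print layout rebuilt from the data.

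The tissue label could be checked with few genes, since only LIPE and CEBPA of the 9 adipocyte markers chosen for this purpose were measured. LIPE, the hormone-sensitive lipase of fat cells, stood at 0.43 and 0.19 in the subcutaneous sample, 1.92 and 2.59 in the mesenteric and 1.96 and 2.40 in the omental sample, against tissue means of 0.13 in liver and 0.31 in mammary gland. The subcutaneous sample was therefore no richer in LIPE than mammary gland, while both visceral samples were. CEBPA, a transcription factor of adipocytes and hepatocytes, had subcutaneous levels of 1.0 and 1.24, mesenteric levels of 1.25 and 1.01 and omental levels of 0.95 and 2.32, and its 2 elements differed in opposite directions. COL3A1, a fibrillar collagen chain and not an adipocyte marker, did set all 3 depots apart from the other tissues. It had subcutaneous levels of 1.17 and 1.66, mesenteric levels of 2.48 and 2.33 and omental levels of 2.87 and 2.59. Its means were -1.43 in liver and -1.36 in mammary gland. Not all matrix genes set the subcutaneous sample apart in this way. FN1, fibronectin, averaged -0.88 there against 0.58 in liver. MFAP4 averaged 0.82 there, 0.82 in liver and 0.81 in mammary gland.

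Among the 4332 genes, 270 (6.23%) were higher and 160 (3.69%) lower than the visceral mean, and this ± reached 2-fold for 21 genes. Among the genes past the rule, 75 were higher and 18 lower by 4-fold or more, and 20 and 3 by 8-fold or more. At the threshold, SDC1 and LY96 lay just inside at 1.0 and PATL1 just outside, rounding to the same value, and on the lower side DDO lay inside at -1.0 with MTURN just outside. The level of both subcutaneous arrays lay beyond all 4 visceral arrays for 260 of the higher and 134 of the lower genes, as it did for 1737 (40.1%) of all genes. When arrays were left uncentred, the median of the gene differences moved from 0.01 to 0.64 and the split became 861 higher and 40 lower, so the balance of the 2 directions depends on centring and the differences below are relative to the median gene.

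Against the mesenteric sample alone, 291 genes (6.72%) were higher and 181 (4.18%) lower in the subcutaneous sample. Against the omental sample alone, 260 (6.0%) were higher and 141 (3.25%) lower. These comparisons share the subcutaneous arrays and are not independent of each other. Past the rule against each depot taken alone were 228 higher and 96 lower genes, and 0 genes passed it in opposite directions. The SD of differences across genes was 0.71 against mesenteric and 0.65 against omental adipose tissue, and 0.31 between the visceral samples.

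**Figure D1:**
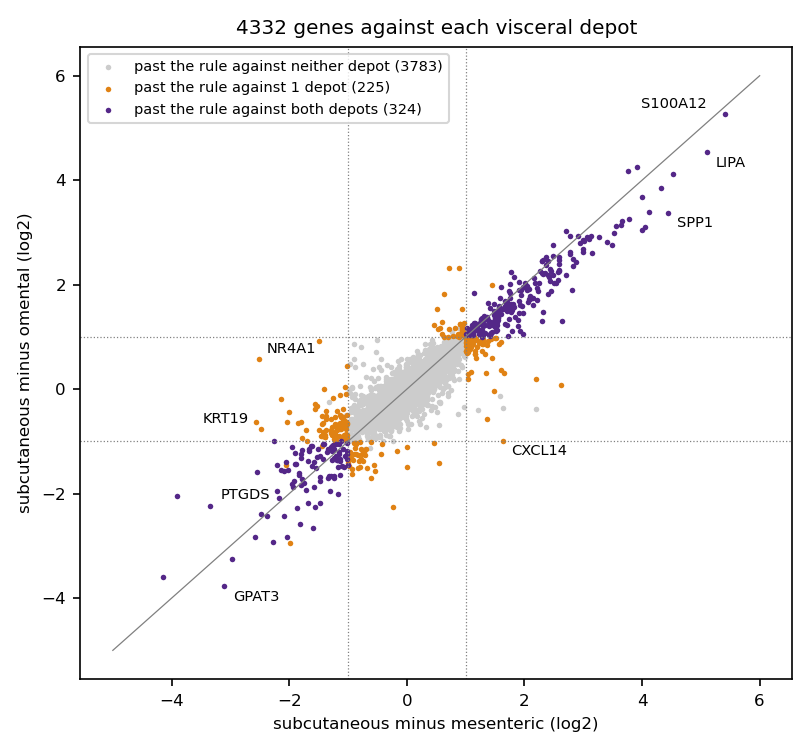
Difference of the subcutaneous from the mesenteric sample (horizontal, log2) and from the omental sample (vertical, log2) for 4332 genes, 1 point each, with dotted lines at 2-fold and the line of equal difference drawn through. Points past the rule against both depots (324) lie in 2 arms along that line, the upper one reaching S100A12 and LIPA, while 225 passed against 1 depot only; both axes share the subcutaneous arrays.

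Most of the genes farthest above the visceral samples are known from phagocytes and other leukocytes. S100A12, a calcium-binding alarmin of granulocytes and monocytes, had levels of 6.50 and 6.76 in the subcutaneous sample, 1.09 and 1.36 in the mesenteric and 1.42 and 1.31 in the omental sample. That is a difference of 5.33 ± 0.09, or 40.3-fold, and its subcutaneous level also lay above the means of liver (0.48) and mammary gland (1.15). LIPA, the acid lipase that hydrolyses cholesteryl esters and triglycerides in lysosomes, had subcutaneous levels of 5.0 and 5.58, mesenteric levels of -0.01 and 0.37 and omental levels of 0.61 and 0.90 and differed by 4.82 ± 0.12 (28.3-fold). CYBB, the membrane-bound catalytic subunit of the phagocyte oxidase, had subcutaneous levels of 5.79 and 5.89, mesenteric levels of 1.32 and 1.30 and omental levels of 1.54 and 1.91 (4.33 ± 0.04). CCR1, a chemokine receptor of monocytes and granulocytes, had subcutaneous levels of 5.05 and 5.46, mesenteric levels of 1.11 and 1.38 and omental levels of 1.10 and 2.05 (3.84 ± 0.10). For each of these 4 genes the lowest subcutaneous array lay more than 8-fold above the highest visceral array. CD68, a glycoprotein of macrophage lysosomes, had subcutaneous levels of 4.40 and 6.31, mesenteric levels of 1.22 and 2.39 and omental levels of 1.73 and 2.74 and differed by 3.34 ± 0.41. Its levels ran higher with the tissue in Cy5 in all depots, and the subcutaneous pair stayed above the visceral ones.

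LGALS3, galectin 3, a lectin secreted by macrophages, had subcutaneous levels of 2.04 and 2.48, mesenteric levels of -1.63 and -1.68 and omental levels of -2.08 and -1.91 (4.09 ± 0.19). SPP1, osteopontin, a secreted glycoprotein of macrophages and also of the mammary gland, had subcutaneous levels of 2.35 and 2.67, mesenteric levels of -1.92 and -1.96 and omental levels of -0.93 and -0.82. It differed by 3.92 ± 0.14, was farther from mesenteric (4.45 ± 0.18) than from omental tissue (3.38 ± 0.10), and in mammary gland averaged 2.88, close to the subcutaneous level. LAPTM5, a lysosomal membrane protein of blood cells, differed by 3.75 ± 0.06, and LCP1, which bundles actin in leukocytes, by 3.53 ± 0.15. The signalling receptors SLAMF7 and CD48 of the SLAM family, both carried by leukocytes, differed by 3.44 ± 0.02 and 3.12 ± 0.18, and ITGB2, the common chain of the leukocyte integrins, by 3.26 ± 0.26. MS4A7, a membrane protein of macrophages, differed by 3.03 ± 0.24 and SRGN, the core protein of the granule proteoglycan serglycin, by 3.11 ± 0.15. LOC514170, which the RefSeq gene table also lists as CSTB, an inhibitor of cathepsins, differed by 4.08 ± 0.14.

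The remaining genes among the leading 20 are not phagocyte markers by name. CADM1, an adhesion molecule of the immunoglobulin family, had subcutaneous levels of 3.15 and 3.75, mesenteric levels of -0.41 and -0.21 and omental levels of -0.71 and -0.74 (3.97 ± 0.26). LDHA, the lactate dehydrogenase subunit that prevails in glycolytic tissue, had subcutaneous levels of -0.10 and -0.20, mesenteric levels of -3.56 and -4.03 and omental levels of -3.14 and -3.44 (3.39 ± 0.15), so the subcutaneous sample was near the reference and all visceral arrays were far below it. MOCOS, which activates molybdenum enzymes, differed by 3.09 ± 0.10. For SOX15, a transcription factor, and SREBF1, which drives fatty acid and sterol synthesis, the arrays disagreed: SOX15 differed by 4.08 and 3.08 in the 2 orientations and SREBF1 by 1.61 and 5.43, the latter through 1 subcutaneous array at 4.72.

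**Figure D2:**
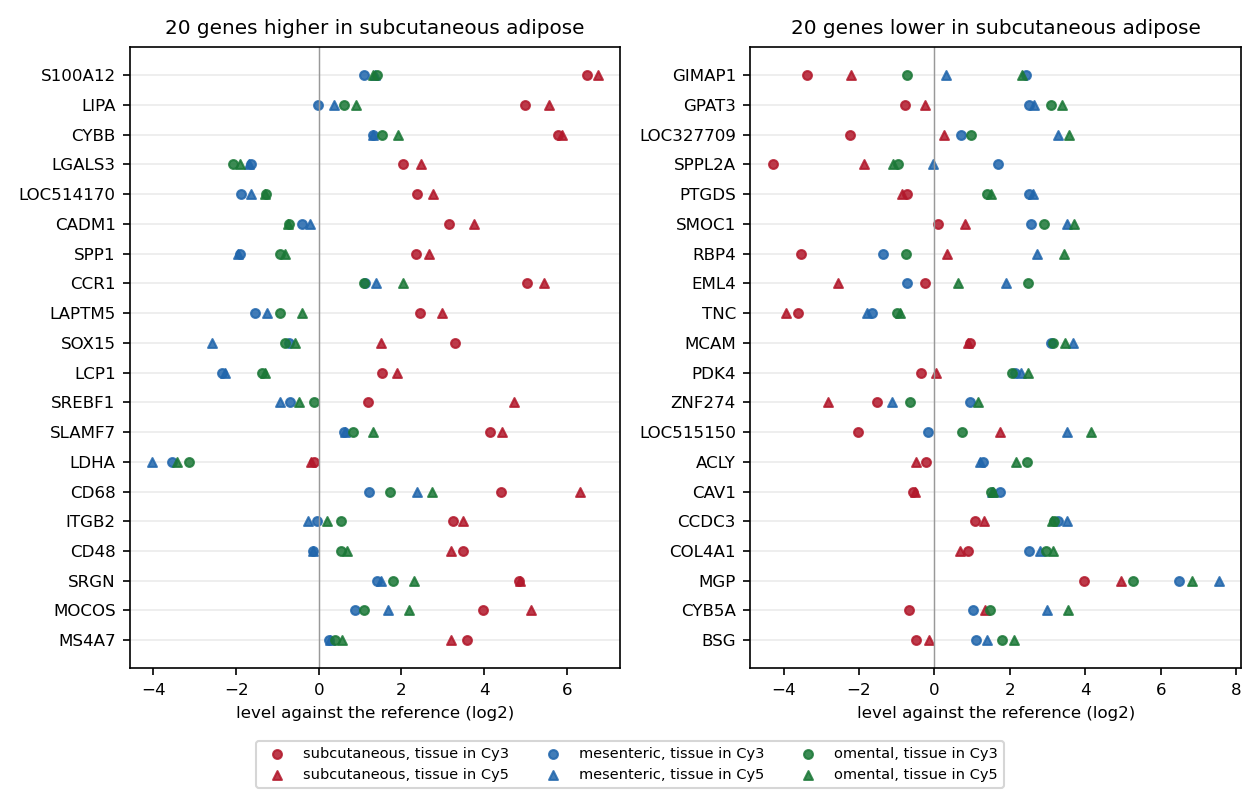
Levels against the reference (log2, horizontal) of the 20 genes with the largest differences in each direction on the 6 adipose arrays; colour gives the depot and shape the dye of the tissue. The red subcutaneous points stand apart from the blue and green visceral points in all 20 higher genes, while for RBP4, LOC515150, CYB5A and EML4 among the 20 lower genes subcutaneous and visceral levels overlap.

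Genes listed for recruited monocytes and granulocytes were higher as a group. As with every list below, the members were chosen with earlier results of these data known. Some of them, such as CD68 and AIF1, are also known from macrophages, and entry of cells from blood was not tested. Of 44 genes on the list of recruited monocyte and granulocyte genes 14 were measured, and 9 were higher, 0 lower and 5 did not pass, with a median difference of 1.80 against 0.01 over all genes. Of all genes 6.23% were higher and 3.69% lower, and these shares and this median are the background for every list count below made with centring. For counts without centring the background is 861 higher and 40 lower of all 4332 genes, with a median of 0.64. The median level of the list was 1.93 and 2.52 in the subcutaneous sample, 0.44 and 0.63 in the mesenteric and 0.67 and 0.78 in the omental sample. Beside S100A12, CYBB, CCR1, CD68 and ITGB2, the list holds AIF1, an actin-binding protein of monocytes and macrophages (2.10 ± 0.03), and CYBA, the partner of CYBB in the oxidase (1.88 ± 0.02). CXCL8, the chemokine that attracts neutrophils, differed by 1.72 ± 0.09 and CD14, the co-receptor for endotoxin, by 1.41 ± 0.09. The members that did not pass stayed near the visceral level: NCF4, a cytosolic subunit of the same oxidase, stood at -0.07 ± 0.05, the neutrophil granule protein BPI at -0.06 ± 0.12, the cyclooxygenase PTGS2 at -0.08 ± 0.15, PLAUR at 0.10 ± 0.33 and FCGR3A, an Fc receptor, at 0.38 ± 0.04. Membrane subunits of the oxidase were thus higher while 1 cytosolic subunit was not.

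The lysosomal list held more higher genes than any other list. On the list of macrophage lysosome and lipid handling genes 43 of 58 were measured; 33 were higher, 0 lower and 10 did not pass, beside 6.23% of all genes higher and 3.69% lower, and the median was 1.70. Its median level was 1.72 and 2.12 in the subcutaneous sample, -0.13 and -0.16 in the mesenteric and -0.04 and 0.11 in the omental sample. GRN, progranulin, a secreted protein taken into lysosomes, had subcutaneous levels of 2.63 and 3.77, mesenteric levels of -0.17 and 0.57 and omental levels of 0.14 and 1.01 (2.81 ± 0.17). MSR1, the macrophage scavenger receptor for modified lipoproteins, had subcutaneous levels of 2.31 and 2.39, mesenteric levels of -0.26 and -0.17 and omental levels of -0.03 and 0.25 (2.40 ± 0.05). SOAT1, which esterifies cholesterol for storage in macrophages and stands on the cholesterol list, differed by 1.91 ± 0.09. NPC2 and NPC1, which carry cholesterol out of the lysosome, differed by 2.01 ± 0.09 and 1.14 ± 0.09. The members of the list that did not pass ranged from -0.08 to 0.86: among them the lipid droplet coat gene PLIN2 stood at 0.67 ± 0.14, the fatty acid binding protein gene FABP5 at 0.31 ± 0.21 with 4 elements between -0.10 and 0.53, and the cholesterol exporter gene ABCA1 at -0.08 ± 0.00.

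Lysosomal genes were also grouped by function into families chosen after the values were seen. The families are not a split of the list above. They share genes with it, such as CTSS and LIPA, and add others, such as ATP6V0A1 and PLD3. Of 12 measured subunits and accessory proteins of the vacuolar ATPase 10 were higher, with a median of 1.39. They came from both the membrane sector, led by ATP6V0A1 (2.43 ± 0.09), and the catalytic sector, with ATP6V1A, a subunit of the catalytic head, at 1.99 ± 0.11. ATP6V0A1 had subcutaneous levels of 1.73 and 2.41, mesenteric levels of -0.53 and -0.14 and omental levels of -0.71 and -0.08, and ATP6AP2, an accessory subunit, had subcutaneous levels of 1.35 and 1.59, mesenteric levels of -1.04 and -0.88 and omental levels of -0.62 and -0.58 (2.25 ± 0.07). The 2 subunits that did not pass, ATP6V1G1 at 0.83 ± 0.02 and ATP6V1F at 0.68 ± 0.05, were also on the higher side in both orientations. Of 9 measured cathepsins 7 were higher (median 2.28): CTSS, prominent in antigen-presenting cells, at 2.88 ± 0.13, CTSK, a collagenase best known from osteoclasts, at 2.87 ± 0.44, then CTSA, CTSH, CTSZ, CTSB and CTSD down to 1.58 ± 0.09. CTSV (0.24 ± 0.27) and CTSF (0.22 ± 0.09) did not pass. CTSS had subcutaneous levels of 4.00 and 4.61, mesenteric levels of 0.90 and 1.39 and omental levels of 1.57 and 1.80, and CTSB, with 3 elements all past 2-fold, had subcutaneous levels of 2.91 and 3.59, mesenteric levels of 0.77 and 1.25 and omental levels of 1.05 and 1.38.

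Among the other lysosomal hydrolases and their activators 19 of 26 were higher and 0 lower (median 1.74). Below LIPA came ACP5, the tartrate-resistant acid phosphatase of macrophages and osteoclasts (2.99 ± 0.16), PLD3 (2.92 ± 0.14), the protease LGMN, legumain (2.92 ± 0.00), and DNASE2, which degrades the DNA of engulfed cells (2.85 ± 0.11). ACP5 had subcutaneous levels of 3.18 and 3.34, mesenteric levels of 0.42 and -0.04 and omental levels of 0.28 and 0.41. Enzymes of glycolipid breakdown were among the higher genes: HEXA (2.26 ± 0.11), GM2A (2.42 ± 0.28), ASAH1, acid ceramidase (2.38 ± 0.09), and PSAP, the precursor of the saposins that present lipids to these enzymes (2.36 ± 0.12). PSAP had subcutaneous levels of 1.72 and 2.02, mesenteric levels of -0.65 and -0.52 and omental levels of -0.39 and -0.38. ARSA (0.05 ± 0.05), ACP2 (0.06 ± 0.12) and NEU1 (0.21 ± 0.10) stayed close to 0, and PLBD2 passed on 1 orientation, with differences of 0.19 and 2.29. Of 29 genes of the lysosomal membrane, its traffic and nutrient sensing 16 were higher and 1 lower (median 1.04), a median below that of the hydrolases. Of these 16 genes 8 passed the rule against each visceral depot alone, beside 228 of the 270 higher genes in all. LAMP1, the main membrane glycoprotein, stood at 1.51 ± 0.09, while LAMP2 disagreed between orientations (0.34 ± 0.57). RRAGD, a GTPase that ties the lysosome to mTORC1, stood at 1.07 ± 0.11, its relative RRAGC at 0.94 ± 0.10 and TFEB, the transcription factor of lysosomal genes, at 0.40 ± 0.05. RAB7A, the GTPase of late endosomes, was the lower gene, with subcutaneous levels of -1.35 and -1.60, mesenteric levels of -0.33 and -0.50 and omental levels of 0.45 and -0.41 (-1.28 ± 0.13), whereas its relative RAB7B was higher at 1.60 ± 0.15.

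**Figure D3:**
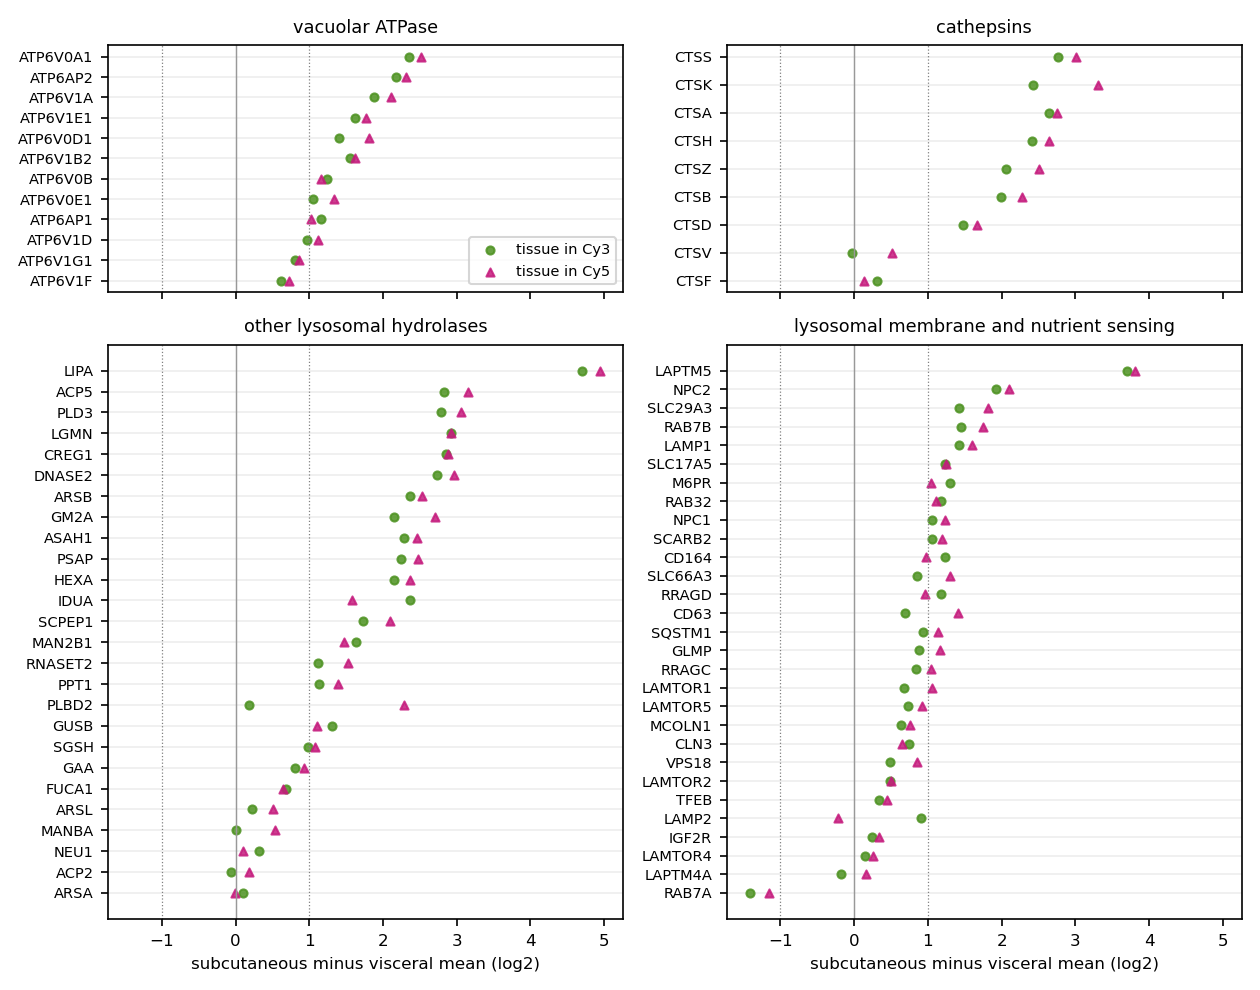
Differences between the subcutaneous sample and the visceral mean (log2) for the measured members of 4 lysosomal families, with 1 point per dye orientation and dotted lines at 2-fold. Most pairs of points lie to the right of 2-fold and close together, PLBD2 and LAMP2 are split between orientations, and RAB7A lies on the left.

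Leukocyte surface and cytoskeleton genes were higher alongside, in lists that overlap with those above and with each other. CD14, CD68, ITGB2 and MSR1 were counted above, and CD48 and CD52 stand on both lists given here. Of 24 measured leukocyte surface receptors, a family chosen after the values were seen, 20 were higher and 1 lower (median 1.49), including CD44, the hyaluronan receptor (2.52 ± 0.03), ICAM1, the ligand of the leukocyte integrins (2.38 ± 0.36), MPEG1, a pore-forming protein of macrophages (2.27 ± 0.13), and the Fc receptor FCGR1A (1.61 ± 0.05). CD209, a lectin of dendritic cells and tissue macrophages, was the lower one, with subcutaneous levels of 0.33 and 0.68, mesenteric levels of 2.04 and 2.77 and omental levels of 1.5 and 2.39 (-1.67 ± 0.23). On the list of leukocyte actin and signalling genes 15 of 22 were higher, 0 lower and 7 did not pass (median 1.36). RAC2, a GTPase of blood cells, had subcutaneous levels of 1.02 and 0.92, mesenteric levels of -1.37 and -1.59 and omental levels of -0.81 and -1.02 (2.17 ± 0.06), and CORO1A, coronin 1A, had subcutaneous levels of -0.10 and -0.01, mesenteric levels of -2.20 and -2.54 and omental levels of -1.5 and -1.57 (1.90 ± 0.14). Subunits of the Arp2/3 complex, which nucleates branched actin, were higher in 3 of the 4 cases on the list: ACTR3 (1.68 ± 0.12), ARPC5 (1.66 ± 0.03) and ARPC2 (1.55 ± 0.01), with ARPC3 just short at 0.99 ± 0.11. Outside the list, ARPC1A stood at -0.50 ± 0.02 and ARPC5L at 0.41 ± 0.15. The phosphatases PTPN6 (1.42 ± 0.06) and INPP5D (1.15 ± 0.15), which restrain signalling in leukocytes, were higher too. The transcription factors IRF8, which directs monocyte development, and SPIC, of red pulp and other iron-handling macrophages, named after their values were seen, differed by 1.31 ± 0.12 and 1.61 ± 0.35.

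Genes of resident macrophages did not move together. Of 11 measured, 2 were higher, 2 lower and 7 did not pass, with a median of 0.39 that turned to -0.14 when both spots of an element were required, a setting under which MS4A7 had no value. VSIG4, a complement receptor of tissue macrophages, had subcutaneous levels of 5.37 and 5.53, mesenteric levels of 2.29 and 2.84 and omental levels of 2.68 and 3.34 (2.66 ± 0.22), and MS4A7 was the other higher one. C1QC, a chain of complement C1q made by resident macrophages, had subcutaneous levels of 0.24 and 1.33, mesenteric levels of 1.29 and 3.23 and omental levels of 1.27 and 2.88 (-1.38 ± 0.34). Its partners C1QB (-0.85 ± 0.15) and C1QA (-0.68 ± 0.11) stood lower in both orientations without passing. Levels of the C1q genes were higher with the tissue in Cy5 in every depot, so that subcutaneous and visceral arrays overlapped although each orientation gave the same sign. LYVE1, a hyaluronan receptor of lymphatic endothelium and some resident macrophages, had subcutaneous levels of 0.40 and 0.97, mesenteric levels of 1.53 and 2.09 and omental levels of 1.56 and 2.55 (-1.25 ± 0.10). CD163, the haemoglobin scavenger receptor, stood at 0.45 ± 0.18, TIMD4, a receptor for dying cells, at 0.88 ± 0.06, and FOLR2, a folate receptor of macrophages, at 0.91 ± 0.06. Without centring no gene of this list was lower and 6 were higher, beside 861 higher of all 4332 genes, C1QC standing at -0.75.

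Lymphocyte and antigen presentation genes were higher in part. Of 9 measured T and NK cell genes 2 were higher (median 0.52): CD3E, with subcutaneous levels of 2.83 and 3.42, mesenteric levels of 0.48 and 1.58 and omental levels of 0.71 and 1.96 (1.95 ± 0.29), and CD3D, with subcutaneous levels of 2.79 and 2.62, mesenteric levels of 0.82 and 1.05 and omental levels of 0.91 and 1.53 (1.63 ± 0.30), both chains of the T cell receptor complex. CD8A stood at -0.02 ± 0.07, GNLY, a granule protein of cytotoxic cells, at -0.11 ± 0.05 and PRF1, perforin, at 0.83 ± 0.10. Of the B and plasma cell list only IGHM, the mu heavy chain (1.45 ± 0.47), and SDC1 (1.0 ± 0.05), which epithelia also carry, were measured, and both were higher. MHC class I and II presentation had 5 of 12 genes higher and 0 lower (median 0.78). BOLA-DRB3, the polymorphic class II beta chain of cattle, had subcutaneous levels of 1.76 and 2.15, mesenteric levels of -0.10 and 0.18 and omental levels of 0.76 and 0.95 (1.51 ± 0.08), and CD74, the invariant chain, had subcutaneous levels of 1.80 and 2.19, mesenteric levels of 0.25 and 0.39 and omental levels of 0.61 and 0.89 (1.46 ± 0.09). IFI30, a reductase that prepares antigens in lysosomes, differed by 2.29 ± 0.02, PSMB8, an immunoproteasome subunit, by 1.34 ± 0.03, and the class I gene BOLA-NC1 by 1.18 ± 0.06. Of 7 measured interferon response genes 0 passed, between -0.71 and 0.40. Among 25 chemokine and cytokine genes 5 were higher and 1 lower (median 0.41). CCL2, which attracts monocytes, had subcutaneous levels of 1.94 and 1.59, mesenteric levels of -0.31 and -0.75 and omental levels of 0.64 and 0.27 (1.80 ± 0.03), IL1RN, the interleukin 1 antagonist, differed by 1.63 ± 0.30, and CXCL16, a chemokine and scavenger receptor, by 1.5 ± 0.01. CCL14 was lower at -1.36 ± 0.42.

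Glucose and redox genes were higher in part. On the glycolysis and pyruvate list 5 of 21 genes were higher and 1 lower (median 0.39). Beside LDHA these were HK3, the hexokinase of leukocytes, with subcutaneous levels of 1.97 and 2.21, mesenteric levels of -0.74 and -0.73 and omental levels of -0.58 and -0.21 (2.65 ± 0.03), ENO1 (1.41 ± 0.02), GAPDH (1.26 ± 0.04) and SLC2A1, the glucose transporter GLUT1 (1.0 ± 0.10). PDK4, which restrains the use of pyruvate in mitochondria when fat is burned, was the lower one, with subcutaneous levels of -0.36 and 0.03, mesenteric levels of 2.13 and 2.30 and omental levels of 2.07 and 2.47 (-2.40 ± 0.05). The members that did not pass ranged from -0.58 for DLD to 0.66 for HK1, with PFKP at 0.00 ± 0.13, ALDOA at -0.19 ± 0.04 and TPI1 at 0.15 ± 0.06. Among oxidative stress and metal handling genes 6 of 22 were higher and 2 lower (median 0.34). The higher ones include the thioredoxin system, with PRDX1 (2.43 ± 0.04), TXNRD1 (1.88 ± 0.04) and TXN (1.69 ± 0.04), and GSR, glutathione reductase (2.14 ± 0.11). PRDX1 had subcutaneous levels of 0.98 and 0.95, mesenteric levels of -1.67 and -1.59 and omental levels of -1.32 and -1.30. HMOX1, which breaks down haem, differed by 1.55 ± 0.06 and GPX1 by 1.63 ± 0.19. GPX3, the glutathione peroxidase secreted into plasma, had subcutaneous levels of 0.97 and 1.96, mesenteric levels of 3.03 and 4.07 and omental levels of 2.63 and 3.42 and was lower (-1.82 ± 0.04), as was TF, transferrin (-1.20 ± 0.03).

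**Figure D4:**
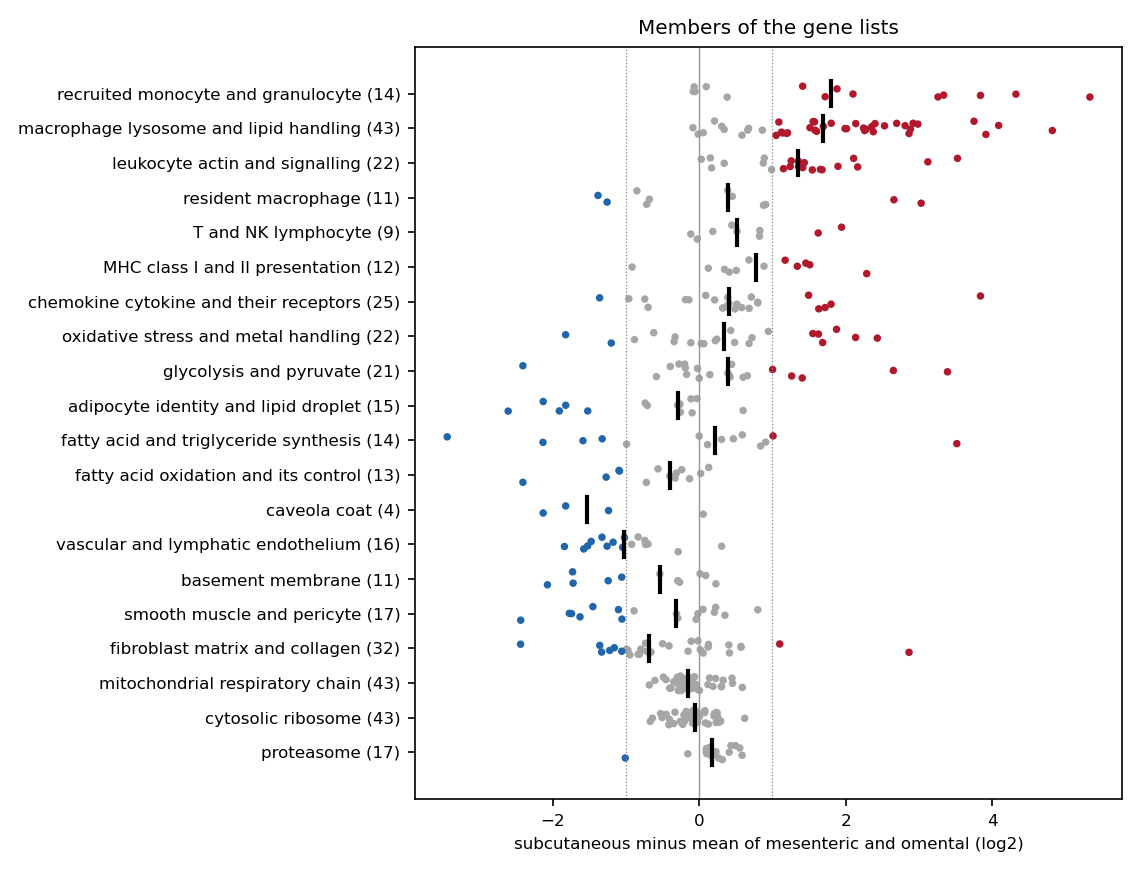
Differences between the subcutaneous sample and the visceral mean (log2) of the measured members of 20 gene lists, 1 point per gene, with the number measured in brackets and the list median as a black bar. Red points were higher and blue points lower by the rule, grey points did not pass; lists of phagocytes and lysosomes lie to the right, endothelium and caveolae to the left, and ribosome and respiratory chain around 0 with 0 points past 2-fold.

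In the other direction, the 20 largest differences belonged to genes of several kinds, among them enzymes, matrix proteins and adhesion molecules. GPAT3, which starts triglyceride synthesis by acylating glycerol 3-phosphate, had subcutaneous levels of -0.79 and -0.26, mesenteric levels of 2.52 and 2.64 and omental levels of 3.10 and 3.39 and differed by -3.44 ± 0.16 (10.8-fold lower). PTGDS, which makes prostaglandin D2, had subcutaneous levels of -0.72 and -0.85, mesenteric levels of 2.50 and 2.61 and omental levels of 1.39 and 1.5 (-2.79 ± 0.12) and was farther from mesenteric (-3.34 ± 0.12) than from omental tissue (-2.23 ± 0.12). SMOC1, a matrix protein that binds calcium, had subcutaneous levels of 0.09 and 0.82, mesenteric levels of 2.56 and 3.50 and omental levels of 2.89 and 3.69 (-2.71 ± 0.07). TNC, tenascin C, had subcutaneous levels of -3.62 and -3.93, mesenteric levels of -1.67 and -1.80 and omental levels of -0.98 and -0.92 (-2.44 ± 0.14), and MCAM, an adhesion molecule of vessel walls, had subcutaneous levels of 0.94 and 0.88, mesenteric levels of 3.10 and 3.68 and omental levels of 3.15 and 3.45 (-2.43 ± 0.25). MGP, a matrix protein that restrains calcification, was far above the reference in all depots yet lower in the subcutaneous sample, with subcutaneous levels of 3.98 and 4.95, mesenteric levels of 6.49 and 7.53 and omental levels of 5.27 and 6.82 (-2.06 ± 0.16). CCDC3, a secreted protein, differed by -2.08 ± 0.07, BSG, the chaperone of lactate transporters, by -1.91 ± 0.01 and CYB5A, cytochrome b5, by -1.92 ± 0.00. LOC327709, listed in RefSeq also as GSTM1, a glutathione transferase, differed by -3.12 ± 0.03, and LOC515150 by -2.20 ± 0.12.

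Several of the leading lower genes rest on uneven arrays. GIMAP1, a GTPase of lymphocytes and the gene with the largest negative difference (-3.87 ± 0.35), had subcutaneous levels of -3.37 and -2.21, mesenteric levels of 2.42 and 0.30 and omental levels of -0.73 and 2.33, so its visceral arrays spread over more than 8-fold. SPPL2A, an intramembrane protease, differed by -4.65 and -1.30 in the 2 orientations, and EML4, a microtubule-binding protein, by -1.12 and -3.81. ZNF274, a zinc finger protein, differed by -2.26 ± 0.59. RBP4, the carrier of retinol made by adipocytes and hepatocytes, had subcutaneous levels of -3.54 and 0.33, mesenteric levels of -1.35 and 2.71 and omental levels of -0.77 and 3.42. Its difference of -2.60 ± 0.13 was steady although its level moved by more than 8-fold between orientations in every depot.

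Of the adipocyte list 15 of 43 genes were measured, and 5 were lower, 0 higher and 10 did not pass (median -0.29, and 0.34 without centring, where 4 were lower and 1 higher). The lower ones were RBP4, the caveola genes CAV1 and CAVIN1, and the lipases LIPE (-1.91 ± 0.40) and PNPLA2, which takes the first fatty acid from triglyceride (-1.52 ± 0.11). PNPLA2 had subcutaneous levels of -0.20 and 0.43, mesenteric levels of 1.08 and 1.81 and omental levels of 1.34 and 2.30, and its 2 elements stood at -2.65 and -0.39. CIDEA, a lipid droplet protein, stood at -0.74 ± 0.39, CEBPA at -0.26 ± 0.16, MGLL, monoglyceride lipase, at -0.11 ± 0.14, ABHD5, the activator of PNPLA2, at -0.25 ± 0.14 and CFD, adipsin, at 0.60 ± 0.01. Caveolae, the membrane pits abundant in adipocytes and endothelium, had 3 of 4 measured coat genes lower, in a family chosen after the values were seen. CAV1, their main protein, had subcutaneous levels of -0.58 and -0.53, mesenteric levels of 1.72 and 1.53 and omental levels of 1.5 and 1.55 (-2.13 ± 0.06), CAVIN1, their coat protein, had subcutaneous levels of -0.23 and -0.15, mesenteric levels of 1.5 and 1.71 and omental levels of 1.59 and 1.71 (-1.82 ± 0.04), and CAVIN3 differed by -1.24 ± 0.22. These 3 genes were also below 0 without centring, at -1.5, -1.19 and -0.61. Lower levels in such a tissue sample cannot tell fewer cells of a type from less RNA per cell, here and below. The phagocyte lists moved the other way in the same sample, with median levels given above, and their part in the lower adipocyte levels was not tested.

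Of 14 measured genes of fatty acid and triglyceride synthesis 4 were lower and 2 higher, with a median of 0.21 (-0.05 against omental tissue alone). Without centring the balance turned to 2 lower and 6 higher, with a median of 0.84 against 0.64 over all genes. Lower beside GPAT3 were ACLY, which makes cytosolic acetyl-CoA from citrate, with subcutaneous levels of -0.23 and -0.49, mesenteric levels of 1.27 and 1.20 and omental levels of 2.45 and 2.15 (-2.13 ± 0.04), ACSL1, which activates long-chain fatty acids, at -1.58 ± 0.01 with overlapping arrays, and ME1, which supplies NADPH, with subcutaneous levels of -1.19 and -1.49, mesenteric levels of 0.04 and -0.16 and omental levels of 0.22 and -0.17 (-1.32 ± 0.00). Higher were AGPAT3 (1.01 ± 0.22) and SREBF1 with its 1 high array, while AGPAT1 (0.31 ± 0.15) and AGPAT5 (0.47 ± 0.06) did not pass. Of 13 genes of fatty acid oxidation and its control 4 were lower and 0 higher (median -0.40, turning to 0.23 without centring, where 1 was lower). Beside PDK4 these were ETFDH (-1.27 ± 0.09) and ETFA (-1.09 ± 0.09), which pass electrons from the oxidation of fatty acids to the respiratory chain, and HADH (-1.09 ± 0.22), an enzyme of the oxidation spiral. CPT1A, the gate of mitochondrial uptake, stood at 0.13 ± 0.09, CPT2 at -0.13 ± 0.16 and ACADVL at -0.33 ± 0.02. Subunits of the respiratory chain did not follow: 0 of 43 were higher and 0 lower, between -0.68 and 0.59 (median -0.16, and 0.47 without centring).

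Genes of vessels were lower as a group. Of 16 measured endothelial genes 9 were lower, 0 higher and 7 did not pass (median -1.03, and -0.40 without centring, where 1 passed). The median level of the list was 0.52 and 0.85 in the subcutaneous sample, 1.48 and 2.20 in the mesenteric and 1.69 and 1.88 in the omental sample. CDH5, the cadherin of endothelial junctions, had subcutaneous levels of 0.96 and 1.23, mesenteric levels of 2.73 and 3.05 and omental levels of 1.79 and 2.90 (-1.52 ± 0.22). KDR, a receptor for vascular endothelial growth factor, had subcutaneous levels of 0.63 and 0.87, mesenteric levels of 1.80 and 1.99 and omental levels of 1.90 and 2.00 (-1.17 ± 0.05), and TEK, the angiopoietin receptor, had subcutaneous levels of 1.01 and 1.64, mesenteric levels of 2.42 and 3.25 and omental levels of 2.12 and 2.82 (-1.32 ± 0.07). AQP1, a water channel of capillaries, differed by -1.47 ± 0.15, EPAS1, a hypoxia-inducible factor, by -1.57 ± 0.08 with 5 elements between -1.66 and -1.45, and GNG11, a G protein subunit, by -1.84 ± 0.06. PECAM1, which leukocytes carry as well, stood at -0.92 ± 0.14 and PLVAP at -0.28 ± 0.13. FLT1 disagreed between depots and arrays (-0.74 ± 0.09). The part of the higher phagocyte lists in these levels was likewise not tested.

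Basement membrane had 5 of 11 genes lower and 0 higher (median -0.54, turning to 0.09 without centring, where 3 were lower). COL4A1, a chain of type IV collagen, had subcutaneous levels of 0.88 and 0.68, mesenteric levels of 2.49 and 2.79 and omental levels of 2.96 and 3.14 (-2.07 ± 0.23), whereas COL4A2, its partner chain, stood at 0.09 ± 0.28. The laminin chains LAMC1, with subcutaneous levels of -0.42 and -0.43, mesenteric levels of 1.08 and 1.24 and omental levels of 1.40 and 1.48 (-1.73 ± 0.07), LAMA4 (-1.72 ± 0.01) and LAMB1 (-1.24 ± 0.07), which together form the laminin of small vessels, were lower. LAMA5 (-0.54 ± 0.03) and HSPG2, perlecan (0.23 ± 0.02), did not pass. Smooth muscle and pericyte genes had 7 of 17 lower and 0 higher (median -0.31, turning to 0.32 without centring, where 3 were lower and 1 higher). TAGLN, transgelin, had subcutaneous levels of -0.80 and -0.97, mesenteric levels of 0.92 and 0.81 and omental levels of 0.95 and 0.87 (-1.77 ± 0.04), MYLK, the kinase of myosin light chain, differed by -1.74 ± 0.08, PLN, phospholamban, by -1.62 ± 0.03 and TPM2, a tropomyosin, by -1.45 ± 0.07. MYH11, the smooth muscle myosin, had subcutaneous levels of -0.74 and -0.74, mesenteric levels of -0.40 and -0.34 and omental levels of -0.35 and -0.64 (-0.31 ± 0.06), and MYL9 stood at -0.04 ± 0.18, so part of the contractile apparatus did not pass.

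Of 32 genes on the fibroblast matrix list 6 were lower and 2 higher, with a median of -0.68. Without centring the median was -0.05, with 1 lower and 6 higher, and of the 6 lower genes 2 passed the rule against each visceral depot alone. Beside TNC the lower genes were the fibulins FBLN5 (-1.35 ± 0.03) and FBLN1 (-1.33 ± 0.21), MFAP4 (-1.22 ± 0.28), COL3A1 (-1.16 ± 0.35) and SPARC (-1.05 ± 0.12), matrix proteins of fibroblasts. COL1A2, of type I collagen, had subcutaneous levels of 0.76 and 0.99, mesenteric levels of 1.22 and 1.35 and omental levels of 1.82 and 1.91 (-0.70 ± 0.06) and DCN, decorin, had subcutaneous levels of 2.52 and 2.19, mesenteric levels of 3.42 and 3.19 and omental levels of 2.79 and 2.66 (-0.66 ± 0.07), both lower without passing. The 2 higher members were CTSK, counted above among the cathepsins, and VIM, vimentin, an intermediate filament of leukocytes as well as fibroblasts, with subcutaneous levels of 0.09 and 0.30, mesenteric levels of -0.98 and -0.82 and omental levels of -0.93 and -0.91 (1.10 ± 0.06). Among complement and coagulation genes PLAU, the urokinase that activates plasminogen, was higher (2.34 ± 0.23) and C4A was lower (-1.04 ± 0.04), of 14 measured.

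**Figure D5:**
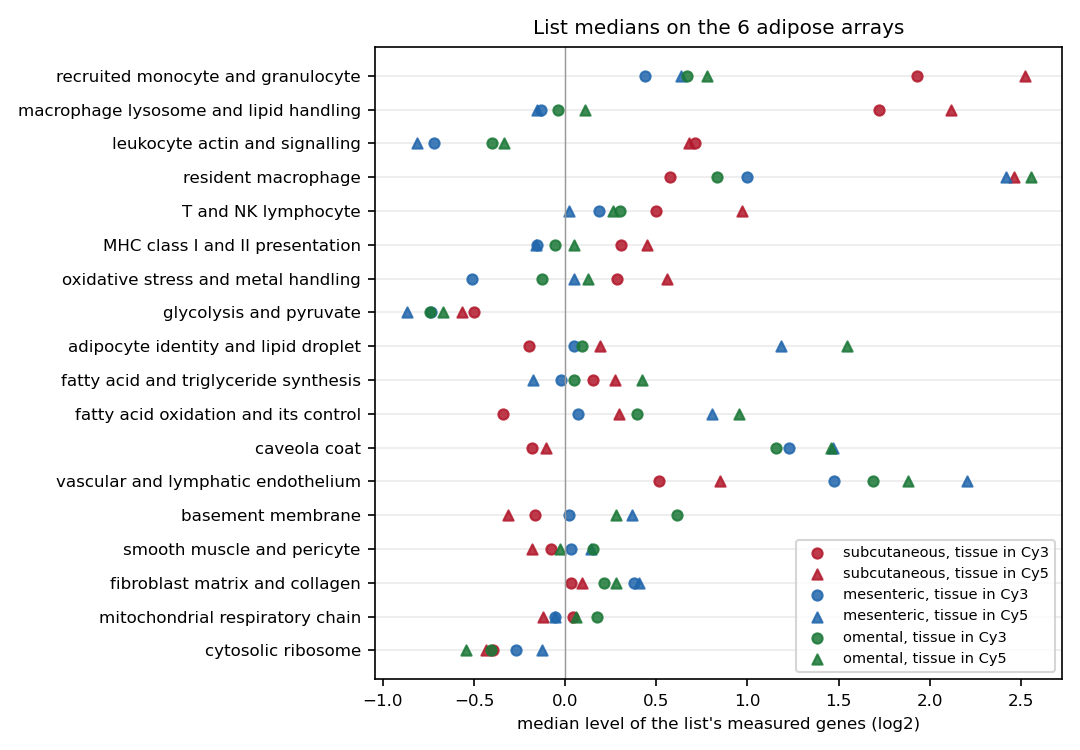
Median level (log2 against the reference) of the measured genes of 18 lists on each of the 6 adipose arrays; colour gives the depot and shape the dye of the tissue. The subcutaneous points lie to the right of all visceral points for the 3 upper lists and for the T and NK, MHC, oxidative stress and glycolysis lists. They lie to the left for caveolae, endothelium, basement membrane, smooth muscle and fibroblast matrix. Without centring the median difference of basement membrane turns from -0.54 to 0.09 and that of smooth muscle from -0.31 to 0.32. The resident macrophage list moves more between dyes than between depots.

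Genes of other cell types that a dissected depot could hold were measured in small numbers: 7 of 29 on the mesothelium list, 2 of 22 on that of skeletal muscle and 0 of 11 on that of erythrocytes. On the mesothelium list, which covers the lining of the abdominal organs, KRT19, a keratin of that lining and of epithelia, had subcutaneous levels of -0.08 and -0.17, mesenteric levels of 1.88 and 2.82 and omental levels of 0.48 and 0.79 (-1.62 ± 0.35), while KRT18 (-0.30 ± 0.04) and KRT8 (-0.43 ± 0.26) did not pass. CDH1, E-cadherin, on this list and on the epithelial one, was higher, with subcutaneous levels of 2.12 and 2.43, mesenteric levels of 0.39 and 0.61 and omental levels of -0.21 and 0.26 (2.01 ± 0.01). The other epithelial genes did not follow it: EPCAM stood at 0.10 ± 0.12, MUC1 at 0.07 ± 0.15 and ST14 at 0.09 ± 0.13, and SPINT1 was lower at -1.39 ± 0.04. The skeletal muscle genes TCAP (-0.54 ± 0.15) and MYOZ1 (-0.28 ± 0.19) did not pass. Among the regulators known to mark depots by their origin, SHOX2 (0.11 ± 0.09) and GATA6 (0.57 ± 0.21) were measured and did not pass.

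Ribosomal protein genes stood near the median gene. Of 43 ribosomal protein genes 0 were higher and 0 lower, between -0.67 and 0.62 (median -0.06, and 0.57 without centring). The proteasome had 1 of 17 genes lower, PSMD8 (-1.01 ± 0.23), beside 3.69% of all genes, and a median of 0.18. PSMD8 did not pass against both depots alone, and without centring 5 proteasome genes were higher and 0 lower (median 0.81, against 0.64 over all genes). Immediate early and heat shock genes, which respond to handling of tissue, had 1 of 22 higher beside 6.23% of all genes (median 0.04). Without centring 7 were higher, beside 861 of all 4332 genes, and their median was 0.67 against 0.64 over all genes. With centring the higher one was FOSB with subcutaneous levels of 2.27 and 2.27, mesenteric levels of 0.42 and 0.29 and omental levels of 0.14 and 0.28 (1.99 ± 0.00). FOS stood at 0.61 ± 0.03, EGR1 at 0.62 ± 0.18 and JUN at 0.99 ± 0.03. Of 16 cell cycle genes CDKN1A, a cell cycle inhibitor, was higher (1.18 ± 0.12) and 0 lower. On the cholesterol list the synthesis genes ACAT2 (-0.81 ± 0.12), LSS (-0.54 ± 0.00) and EBP (-0.52 ± 0.14) did not pass, and on the prostaglandin and steroid list PTGDS was the 1 gene of 12 past the rule, with HSD11B1, which activates cortisol, at -0.15 ± 0.03.

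Set against all 5 tissues, 236 of the 266 higher genes with a value in every tissue had their highest level in the subcutaneous sample, against 1123 of 4307 genes in all, and 76 of 155 lower genes had their lowest level there, against 807 of all genes. The rule that picked these genes already placed them above or below the visceral mean.

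A small number of genes took different places against the 2 visceral depots. Of the genes past the rule against either, 40 had mesenteric and omental levels more than 2-fold apart with the same sign in both orientations, and 29 of them were farther from mesenteric and 11 farther from omental tissue. The widest was NR4A1, an orphan nuclear receptor induced within minutes of a stimulus, at -2.52 ± 2.09 against mesenteric and 0.57 ± 0.23 against omental tissue, with subcutaneous levels of -1.92 and -0.29, mesenteric levels of 2.69 and 0.14 and omental levels of -2.27 and -1.10. Its mesenteric levels differed by more than 4-fold between the dyes, and most of the 10 widest shared this pattern of 1 array far from its partner. CXCL14 stood at 1.63 ± 1.54 and -0.99 ± 0.54, CASD1 at 2.61 ± 1.81 and 0.09 ± 0.01, CTNNBIP1 at -1.5 ± 0.14 and 0.93 ± 0.77, UBE2Q2 at -0.23 ± 1.34 and -2.26 ± 1.51, and PHOSPHO1 at 2.20 ± 1.09 and 0.19 ± 0.56 against mesenteric and omental tissue in turn. BAG2 (-2.14 ± 1.36 and -0.19 ± 0.01), TMCC3 (-2.56 ± 0.19 and -0.63 ± 0.53) and B3GNT8 (1.36 ± 1.18 and -0.57 ± 0.74) followed. SMDT1, a part of the mitochondrial calcium channel, was an exception with even arrays, at 0.55 ± 0.12 and -1.41 ± 0.29.

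With closer agreement of the arrays, and named after their values were seen, KRT19 stood at -2.48 ± 0.51 against mesenteric and -0.76 ± 0.20 against omental tissue and FBLN1 at -2.04 ± 0.14 and -0.62 ± 0.29. FN1, fibronectin, stood at -1.56 ± 0.08 and -0.38 ± 0.06, PLN at -2.25 ± 0.09 and -1.0 ± 0.04, and FBXO32, a ubiquitin ligase, at -1.02 ± 0.01 and 0.43 ± 0.05. For these 5 genes the mesenteric level was the highest of the 3 depots and the omental level lay nearer to the subcutaneous one. ACLY ran the other way, at -1.60 ± 0.09 against mesenteric and -2.66 ± 0.02 against omental tissue.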

How the data were processed

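Each depot was 1 RNA sample on 2 two-colour cDNA arrays against a reference mixed from tissues, per the labels. Slides were read with a ScanArray 4000 and GenePix 4.0, per the labels. The values are the series' deposited log2 ratios of the dyes; their base, background correction, normalisation and channel direction were among the points not given in the sources used here. Base 2 was taken because values stop at 16.61, the log2 of 100000, and 52 such values on the adipose arrays were taken as missing. Signs were turned on arrays with the tissue in Cy3, since the ratio was read as Cy5 to Cy3; the design text speaks of relative expression without naming a channel order. For 1 omental array the reference is described as Cy5 but labelled Cy3, and the label was followed. The arrays of a tissue correlated at -0.74 to -0.70 as deposited, and arrays of 1 orientation at 0.50 to 0.79.

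Arrays were centred on their median, duplicate spots averaged, and elements with a value on all 6 arrays averaged per gene (5416 elements). Identifiers at face value gave clones of 1 gene unrelated profiles (mean cosine 0.015 over 356 pairs), so the print layout was rebuilt: 48 blocks of 171 elements in the table against 16 blocks of 528 in the annotation. The best of 768 by 384 layouts reached 0.747 on 283 held-out pairs and the next different one 0.297. Because the layout was known from earlier work on these data, the held-out value is not blind, and a clone can carry a wrong name. Names were updated by Entrez identifier to the RefSeq table of ARS-UCD2.0 (5467 of 5472 elements). No coordinates are given, because no build is named for the deposited table.

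The members and lists were chosen with earlier results of these data known. Besides 31 lists, 8 were added after the values were seen. Several lists overlap, with 57 genes shared, so their counts are not separate observations. Genes were named as follows: the 20 largest differences in each direction without a contrary element past 2-fold, the largest members of each list, the cell type markers, and the 10 genes whose visceral depots lay farthest apart. Some further members that did not pass are named to show a list's spread and were chosen after their values were seen. The size rule was tested on simulated data with planted changes larger than the threshold and the same normal noise on every array. Uneven arrays, dye effects and the spread between animals were not simulated, so the test does not cover them. Python 3.11.15 with numpy 2.4.6, pandas 2.3.3 and matplotlib 3.10.9 was used. The alternatives were other centring, filters, thresholds, orientations and depots.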

Additional observations from a re-analysis of the deposited data

How the results depend on the processing

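Without centring the all-gene median was 0.64, 861 genes were higher, 40 lower and 606 past the rule against both depots alone. With a 3-fold threshold the counts were 130, 44 and 138. The other alternatives kept each of these counts that they gave within 1.5 times of 270, 160 and 324, and taking 1 visceral depot alone gave the first 2 counts only: leaving out the arrays of 1 orientation gave 252 to 310 higher, 163 to 176 lower and 322 to 374 against both depots, quantile normalisation 251, 185 and 331, leaving out the omental Cy5 array 282, 168 and 306, and requiring 2-fold in each orientation, added after seeing the data, 225, 120 and 270. The mean difference of none of the 40 leading genes changed sign or fell under 2-fold in any alternative that gave it a value. EML4 nevertheless did not pass the rule against mesenteric tissue alone (-1.98 ± 2.47), where its orientations differed in sign. Requiring both spots left 33 of the 40 with a value. Without centring the medians of the adipocyte, fatty acid oxidation, basement membrane, smooth muscle, insulin signalling, cholesterol, mesothelium, prostaglandin, ribosome, respiratory chain and skeletal muscle lists turned from below to above 0. Leaving out centring moves every difference by the same amount, as it moved the all-gene median from 0.01 to 0.64. All of these list medians stayed below 0.64. Against omental tissue alone those of the mesothelium, prostaglandin and ribosome lists also turned above 0 and that of fat synthesis turned to -0.05. The resident macrophage median turned to -0.14 with both spots required, and those of the early response and epithelial lists to -0.04 on 1 orientation. The cause of the turns under settings other than centring was not tested. No paired analysis was possible because no difference comes from a test; each difference was already taken within a dye orientation. A planned search for promoter motifs was not run, as no sequences were at hand here. Channel intensities were not analysed, so dim spots could not be filtered, and 1 RNA sample per depot leaves the spread between animals unknown.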

Other observations

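Gene groups outside the lists above were looked at after the values were seen. Of 18 measured genes that anchor actin to junctions and matrix, many of them LIM domain proteins, 9 were lower and 0 higher (median -0.86, and -0.23 without centring, where 3 were lower). FHL1, a LIM protein of muscle and stroma, had subcutaneous levels of 0.58 and 0.60, mesenteric levels of 2.79 and 2.81 and omental levels of 1.96 and 2.11 (-1.83 ± 0.03), and PDLIM1 (-1.66 ± 0.07), ABLIM1 (-1.53 ± 0.09), LMO7 (-1.35 ± 0.02) and FERMT2, a partner of integrins (-1.47 ± 0.29), were lower too. Zyxin, ZYX, stood at 0.87 ± 0.05 and talin, TLN1, at 0.03 ± 0.13. Of 15 genes of insulin signalling 4 were lower and 0 higher (median -0.22), and 1 of the lower ones passed against each visceral depot alone. Without centring 0 were lower and 2 higher, with a median of 0.41 against 0.64 over all genes. The lower ones were FAM13A (-1.14 ± 0.02), PIK3R1, the regulatory subunit of the insulin-activated lipid kinase (-1.02 ± 0.05), TBC1D4, which holds glucose transporters inside the cell (-1.01 ± 0.00), and SIK2 (-1.01 ± 0.03), all close to the threshold. AKT2 stood at -0.54 ± 0.23 and AKT1 at 0.05 ± 0.00.

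H19, an imprinted RNA without protein product, had subcutaneous levels of 0.19 and -0.01, mesenteric levels of 1.48 and 1.86 and omental levels of 1.46 and 1.52 (-1.49 ± 0.21). HMGA1, a chromatin protein, was higher at 1.70 ± 0.18, and MMP19, a metalloproteinase, at 2.99 ± 0.22. Among the 2646 elements that carry no gene name here, 134 were higher and 138 lower in the subcutaneous sample by the same rule. Over all 8062 elements with a value on every adipose array, 483 were higher and 355 lower. Several elements were printed for 91 of the genes past the rule, and for 89 of these no element ran the other way; the layout was chosen for agreement of clones, so this is no separate support for the names.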
